A study of Mus musculus with 41 samples.

Results

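The genes of the core circadian clock were followed in 41 mammary tumors of mice. The 10 genes were taken by symbol: Arntl (BMAL1), Clock, Per1, Per2, Per3, Cry1, Cry2, Nr1d1 (REV-ERBα), Nr1d2 (REV-ERBβ) and Dbp. All 10 were on the array and all 10 passed the filter on low signals, among 20910 genes that passed it of 30175 gene names on the array. The Nr1d1 probe lies on the minus strand at chr11:98630526-98631028 (build mm9), Nr1d2 at chr14:19037253-19037312, Per3 at chr4:150379256-150379315 and Clock at chr5:76641377-76641436. Each gene was read by its probe of highest mean signal, and every value is a log2 ratio of tumor signal (Cy5) over reference signal (Cy3) on the same two-colour array.

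Fragments of mammary duct from female BALB/c Trp53-null donors had been placed in the cleared fat pads of wild-type female BALB/c hosts, so all tumors arose from Trp53-null epithelium in hosts that carried the gene. The hosts ate a low-fat diet throughout (LFD), a high-fat diet throughout (HFD), a high-fat diet in puberty only (HFD-LFD) or a high-fat diet from adulthood only (LFD-HFD). Tumors were epithelial (29) or spindle cell carcinomas (12), and early or late by their latency. The 29 epithelial tumors held 8 LFD, 8 HFD, 7 HFD-LFD and 6 LFD-HFD tumors, 14 of them early and 15 late, and the 12 spindle cell tumors held 3 of each regimen, 3 of them early and 9 late. The reference was 1 commercial RNA pool of 11 mouse cell lines. The hour at which each tumor was taken is not given in the sources used here, and fewer cells of a type cannot be told apart from less RNA per cell in such bulk samples.

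The clock is a feedback loop of transcription that runs in nearly every cell. The proteins of Arntl and Clock pair on E-box sequences and switch on the Per and Cry genes, whose proteins then hold that pair back. The same pair drives Nr1d1 and Nr1d2, nuclear receptors that repress Arntl, and Dbp, a leucine zipper factor that carries the rhythm to output genes through D-box sequences. In tissues sampled around the day, Arntl is high when Nr1d1, Dbp and the Per genes are low, and clock genes have been studied in the mammary gland and its tumors for their ties to cell division and metabolism.

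The 250 bases before a RefSeq start (build GRCm38.p6) are shown for 6 genes: the 4 genes that rose and fell together most across spindle cell tumors, and the 2 genes with a full E-box there. For Per1, which has a further start, the first is shown. They are written 5′ to 3′ on the gene's strand, and capitals mark matches on either strand. The E-box searched was CACGTG. The E-box variant searched was CACGTT, which on the other strand is written AACGTG. The D-box searched was TTATGNAA. No matches to different motifs overlapped in these windows.
Nr1d1, chr11:98775378-98775627, - strand: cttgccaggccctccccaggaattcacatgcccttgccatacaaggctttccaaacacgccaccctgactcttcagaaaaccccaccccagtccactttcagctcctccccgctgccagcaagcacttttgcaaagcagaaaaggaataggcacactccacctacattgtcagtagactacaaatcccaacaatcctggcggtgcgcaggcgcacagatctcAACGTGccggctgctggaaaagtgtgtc
Nr1d2, chr14:18239107-18239356, - strand: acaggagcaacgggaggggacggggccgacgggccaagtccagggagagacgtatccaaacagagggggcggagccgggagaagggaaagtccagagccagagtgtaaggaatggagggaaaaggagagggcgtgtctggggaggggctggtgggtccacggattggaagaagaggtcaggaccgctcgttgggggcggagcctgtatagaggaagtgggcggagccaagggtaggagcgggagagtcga
Per3, chr4:151044666-151044915, - strand: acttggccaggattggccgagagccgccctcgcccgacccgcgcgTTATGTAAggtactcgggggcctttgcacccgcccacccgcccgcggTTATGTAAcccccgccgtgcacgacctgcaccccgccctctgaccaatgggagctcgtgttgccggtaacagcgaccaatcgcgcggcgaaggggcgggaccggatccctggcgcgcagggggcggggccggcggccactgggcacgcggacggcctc
Dbp, chr7:45704997-45705246, + strand: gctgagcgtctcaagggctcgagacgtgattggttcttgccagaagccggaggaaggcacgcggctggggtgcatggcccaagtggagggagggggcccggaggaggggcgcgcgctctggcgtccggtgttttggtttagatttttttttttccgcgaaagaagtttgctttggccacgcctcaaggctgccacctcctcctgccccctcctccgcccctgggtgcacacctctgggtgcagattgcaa
Per1, chr11:69098699-69098948, + strand: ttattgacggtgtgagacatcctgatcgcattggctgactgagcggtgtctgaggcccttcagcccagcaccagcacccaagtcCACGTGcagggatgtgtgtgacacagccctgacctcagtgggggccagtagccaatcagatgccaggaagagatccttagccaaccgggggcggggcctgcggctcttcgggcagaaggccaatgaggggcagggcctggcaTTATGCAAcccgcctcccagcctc
Cry1, chr10:85185055-85185304, - strand: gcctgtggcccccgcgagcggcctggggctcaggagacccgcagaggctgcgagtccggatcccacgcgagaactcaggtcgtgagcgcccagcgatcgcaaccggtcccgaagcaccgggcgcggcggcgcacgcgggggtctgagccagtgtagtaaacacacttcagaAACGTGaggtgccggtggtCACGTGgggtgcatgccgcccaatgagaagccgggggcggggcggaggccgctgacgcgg
The table of promoters held 9 of the 10 genes, all but Per2. A gene was counted where any of its starts had a match. The E-box was found before Per1 and Cry1 and in 6.86% of the 27025 genes in the table (6.02% of its 32851 starts). The window of the further Per1 start held no match to any motif. The CACGTT variant was found before Cry1, Cry2 and Nr1d1 and in 4.5% of genes (3.85% of starts). The D-box was found before Per1 and, in 2 copies, before Per3, and in 3.63% of genes (3.07% of starts). The RORE, the element that REV-ERB proteins bind, was searched as a fixed pattern ending in GGTCA. It was found in these windows of none of the 9 genes and of 0.396% of all genes (0.332% of starts). Other forms of the element, and bases outside the windows, were not searched, so a RORE near these genes is not excluded. The windows of Nr1d2 and Dbp held none of the 4 motifs.

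On the 41 arrays between 51.1% and 94.8% of probes were well above background in the tumor channel. Tumors are called by the names in their labels. Tumors MSU_60L and MSU_M76R stood furthest from the others (correlation with the mean of the other arrays 0.76 and 0.74 across probes), and 21.2% of the probes of MSU_60L carried an outlier flag. The 29 epithelial tumors lay on 8 slides and the 12 spindle cell tumors on 3 others, read in a session of their own, so tumor type cannot be told apart from the session in which its arrays were scanned. The epithelial arrays came from 2 other sessions, 27 from one and 2, those of the early HFD tumors MSU_42L4B and MSU_60L, from the other, so values without these 2 tumors are values within 1 session. In 38 of the 41 columns of the authors' matrix the best matching scanner file was that of the same tumor, while the columns of MSU_40R4A, MSU_57R and MSU_65R, all of them epithelial HFD tumors, matched one another's files. The labels give Cy5 to the tumor whereas the study's methods give it to the reference, and all signs here follow the labels. Of 4 Y-linked genes, which female donors and hosts lack, Ddx3y and Eif2s3y had median ratios of -6.94 and -6.47, Uty of -0.93 and Kdm5d of 0.18, so the first 2 were brighter in the Cy3 channel. Trp53 ratios ran from -2.25 to 3.74, but whether its probe lies in the deleted part was not checked, so they test no label. Of 10 mesenchymal markers 5 were higher in spindle cell tumors, and of 10 epithelial markers none passed the test (median difference -0.70). Of 8 endothelial markers 5 were higher in spindle cell tumors (median difference 0.82), where 7.92% of all genes tested were higher and 20.2% were called in either direction. All 8 were above background in every spindle cell tumor. The endothelial list averaged between -2.10 and 0.92 in single epithelial tumors and between -1.31 and 1.18 in single spindle cell tumors, and its part in the clock gene values was not tested.

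The activators were read on strong probes, well above background in the tumor channel in all 41 tumors. Arntl averaged 0.00 ± 0.51 (SD, n = 29) in epithelial and 0.11 ± 0.46 (n = 12) in spindle cell tumors. Its epithelial values ran from -1.12 in MSU_60L through a median of 0.03 to 1.20 in MSU_101L4A, and its spindle cell values from -0.90 to 0.66. Clock, the partner of Arntl and a histone acetyltransferase, averaged 2.10 ± 0.72 and 2.11 ± 0.44. Clock was above the reference in every tumor, from 0.55 in MSU_122Rb to 3.72 in MSU_60L.

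Of the repressors, Per1 and Cry2 lay below the reference and Per2 near it. Per1, a period gene that also responds quickly to stress hormones, averaged -1.49 ± 0.55 in 27 epithelial tumors (the spots of 2 tumors were left out as outliers) and -1.48 ± 0.26 in spindle cell tumors. Per1 was below the reference in every tumor that gave a value. Per2, the period gene most studied for tumor suppression, averaged 0.22 ± 0.70 and 0.04 ± 0.35 and lay on both sides of the reference in both histologies. Cry2, a cryptochrome that binds the Arntl and Clock pair, averaged -1.55 ± 0.65 in 28 epithelial tumors and -1.75 ± 0.79 in spindle cell tumors, again below the reference throughout.

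Per3 and Cry1 were dim. The Per3 probe was well above background in the tumor channel in 18 of 29 epithelial and 6 of 12 spindle cell tumors, and the Cry1 probe in 14 of 29 and 6 of 12. Per3, the period gene least needed for the rhythm itself, averaged 0.93 ± 0.94 and 1.12 ± 0.70. Its SD in epithelial tumors was larger than that of 84.5% of genes tested. Cry1, the stronger repressor of the cryptochromes, averaged -0.39 ± 0.73 and 0.27 ± 0.82.

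The nuclear receptors and the output gene were again bright. Nr1d1 averaged -1.13 ± 0.71 in epithelial and -0.41 ± 0.73 in spindle cell tumors, and Nr1d2 averaged 1.02 ± 0.60 and 0.89 ± 0.52. Dbp averaged 0.53 ± 0.84 and 0.18 ± 0.87, with its lowest value, -2.19, in MSU_60L. Second probes were present for 4 genes. Those of Dbp (r = 0.98 over epithelial and 0.99 over spindle cell tumors, across tumors) and Cry2 (0.84 and 0.92) followed the first, while those of Nr1d2 (0.19 and 0.88) and Per1 (0.21 and -0.13) did not do so in both histologies.

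**Figure D1:**
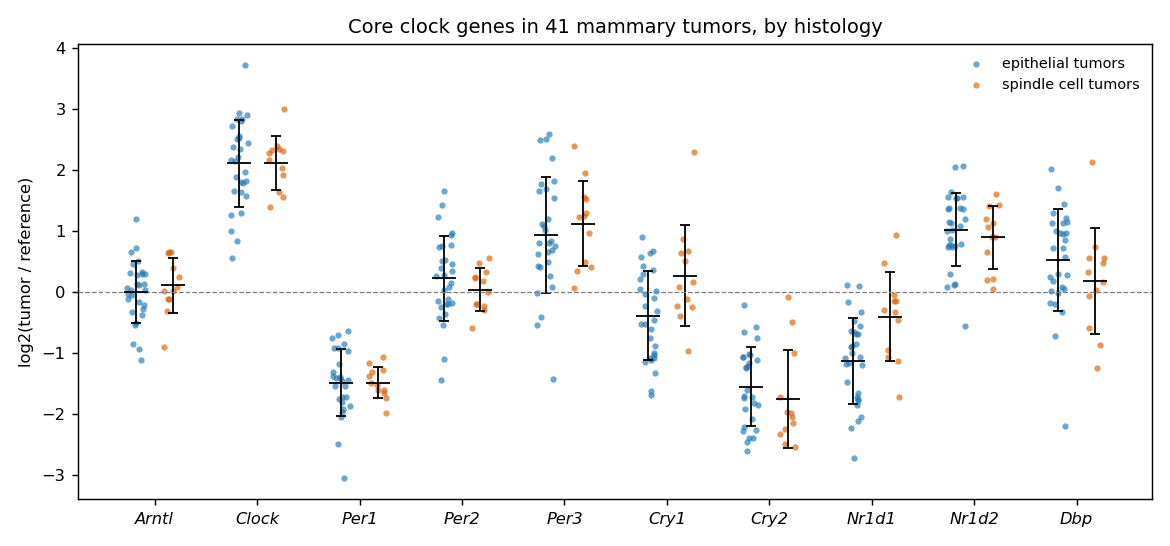
Log2 ratio of tumor over reference (vertical axis) of the 10 clock genes in 29 epithelial (blue) and 12 spindle cell (orange) tumors; each point is 1 tumor, and bars give the mean and SD. Nr1d1 shows the largest step between histologies, from a mean of -1.13 to -0.41, and the points of both histologies overlap for all 10 genes.

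The first comparison asked whether clock genes differed between spindle cell and epithelial tumors. Nr1d1 was higher in spindle cell tumors, and of the 10 genes it alone passed an adjusted p of 0.05 in the limma fit over all genes. In epithelial tumors Nr1d1 ran from -2.71 in MSU_90R through a median of -1.06 to 0.12 in MSU_66L. In spindle cell tumors it ran from -1.72 in MSU_M32L through a median of -0.31 to 0.93 in MSU_M63L. The difference was 0.72 ± 0.24 (SE; adjusted p = 0.0298, n = 12 and 29). Of all genes tested 20.2% were called in this comparison, 7.92% as higher, beside 1 of the 10 clock genes. At an unadjusted p under 0.05 it was 2 of the 10 (Nr1d1 and Cry1) beside 33.3% of all genes.

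In the signals of each dye, before the shift of all genes was set aside, the step between the Nr1d1 means of both histologies lay in the reference channel. The Nr1d1 signal of the tumor channel averaged 8.87 ± 0.74 (log2, SD) in epithelial and 8.87 ± 0.89 in spindle cell tumors. The signal of the reference channel, which holds the same RNA on every array, averaged 9.99 ± 0.40 on the epithelial and 9.27 ± 0.24 on the spindle cell arrays. Set against the median shift of all genes in each channel (-0.38 in the tumor and -0.33 in the reference channel), Nr1d1 was 0.38 higher in the tumor channel and changed by -0.39 in the reference channel. With that shift set aside, both channels thus shared the step about equally. Among the 4218 genes called, the reference moved more than the tumor channel in 32.2%. With slide as a random block the adjusted p of Nr1d1 was 0.0786, with normexp background correction and loess it was 0.175 (difference 0.46), and with the authors' matrix it was 0.0552.

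**Figure D2:**
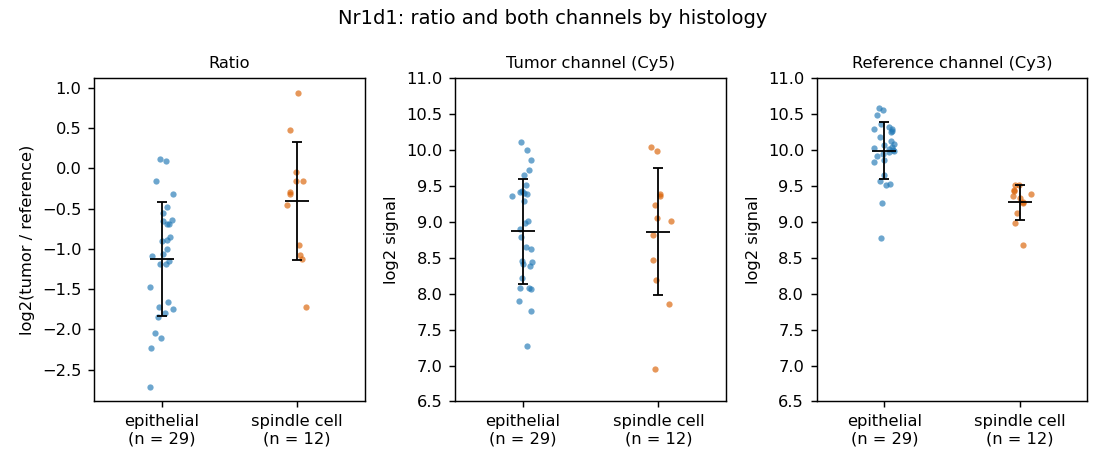
Nr1d1 in 29 epithelial and 12 spindle cell tumors: the log2 ratio (left) and the log2 signals of the tumor channel (middle) and the reference channel (right); points are tumors, and bars give the mean and SD. The tumor channel averages 8.87 in both histologies, and the reference channel averages 9.99 and 9.27, without allowance for the shift of all genes between histologies.

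Cry1 came next. Its difference was 0.66 ± 0.25 (adjusted p = 0.0581) and, with normexp and loess, 0.21 ± 0.08 (adjusted p = 0.0577). The epithelial Cry1 values ran from -1.69 to 0.91 and the spindle cell values from -0.97 in MSU_M76R to 2.28 in MSU_M32L. The differences of the remaining 8 genes lay between -0.35 (Dbp, SE 0.28) and 0.19 (Per3, SE 0.29). Those of Clock (0.01 ± 0.22) and Per1 (0.00 ± 0.17) were closest to 0, and both turned below 0 with median centring (-0.05 and -0.06). For Dbp the second probe differed by -0.79, and for Nr1d2 it differed by -0.62 beside -0.12 for the first. The median difference over the 10 genes was 0.00, beside -0.07 over all genes. Of the 4218 genes called 1657 were higher and 2561 lower, against 1302 and 3404 with median centring and 2033 and 2055 with the authors' matrix. Late tumors alone called 0 of the 10 genes, with Nr1d1 at 0.77 (adjusted p = 0.121).

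Time of onset was compared within the 29 epithelial tumors. No clock gene passed an adjusted p of 0.10, where 0.143% of all genes did. Per1 had the smallest p of the 10. Early tumors ran from -1.71 through a median of -1.25 to -0.64 and late tumors from -3.05 through -1.75 to -0.71, so that the groups overlapped. The means were -1.18 ± 0.34 (SD, n = 12) and -1.73 ± 0.58 (n = 15). The difference of Per1 was 0.55 ± 0.19 (SE; adjusted p = 0.22 in the limma fit over all genes), and it was 0.30 ± 0.34 with slide as a fixed block. The fit with slide as a block rests on the 2 slides that held Per1 values of both onsets. On 1 of them the early tumors were LFD-HFD and the late tumors HFD, so onset and regimen cannot be told apart there. Within the session of 27 tumors the Per1 difference was 0.58 ± 0.19 (adjusted p = 0.277). Without MSU_40R4A, MSU_57R and MSU_65R it was 0.57, and with the labels that the matrix gives these 3 tumors it was 0.43. Of the 10 genes 1, Per1, had an unadjusted p under 0.05, beside 13.2% of all genes. The dimmer second Per1 probe did not follow the first. Cry2 differed by -0.35 ± 0.23 (adjusted p = 0.523), with a difference below 0 on all 3 slides that held both onsets. These include the slide on which onset and regimen cannot be told apart, and another set 1 early tumor against 3 late tumors.

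Diet in puberty was compared over all 41 tumors, 21 with HFD and 20 with LFD in puberty. None of the 10 genes passed an adjusted p of 0.10, where 0.00956% of genes did, and 2 had an unadjusted p under 0.05 (Per3 and Arntl) beside 6.95% of genes. Per3 averaged 1.31 ± 0.77 with pubertal HFD and 0.64 ± 0.86 with pubertal LFD, a difference of 0.67 ± 0.25 (adjusted p = 0.603). Within the 4 slides that held both diets the Per3 difference was above 0 in 3 and -0.83 on the other. The latter set 1 tumor with pubertal HFD against 3 with pubertal LFD. On 1 of the 3 slides the pubertal HFD tumors were late and the pubertal LFD tumors early, so diet and onset coincide there. Another set 3 tumors with pubertal HFD against 1. The Per3 difference with slide as a block was 0.27 ± 0.44. With normexp and loess it was 0.16, and without MSU_40R4A, MSU_57R and MSU_65R it was 0.48. Arntl averaged -0.12 ± 0.49 and 0.19 ± 0.44, a difference of -0.30 ± 0.15 (adjusted p = 0.718). With slide as a block that of Arntl was -0.20 ± 0.25.

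Diet in adulthood gave no call among the 10 genes, and of all genes tested 0% were called at an adjusted p of 0.10. At an unadjusted p under 0.05 none of the 10 genes passed, beside 954 of 20910 genes (4.56%). The differences of adult HFD against adult LFD lay between -0.38 ± 0.21 (Cry2) and 0.39 ± 0.23 (Nr1d1). On the 2 spindle cell slides that held both adult diets the Cry1 difference was below 0 (-0.93 and -2.18). Each difference set 3 tumors with adult HFD against 1 with adult LFD. The latter was MSU_M33R on the first slide and MSU_M32L, which held the highest Cry1 value, on the second. The fit with slide as a block, which rests on these 2 slides, gave -1.55 ± 0.53 (adjusted p = 0.627) beside -0.37 ± 0.24 without it. The Cry1 probe was dim, as given above. Interaction terms of pubertal diet or onset with histology called no clock gene, where 0.445% and 0.00478% of all genes were called, and none of the 10 had an unadjusted p under 0.05 in either, beside 12.2% and 3.01%.

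The 4 regimens were compared by an F-test within the epithelial tumors. Of these tumors only some of HFD and LFD-HFD shared a slide, so the other regimens cannot be told apart from slide. No clock gene passed an adjusted p of 0.10, where 0.473% of genes did, and 3 had an unadjusted p under 0.05 (Clock, Cry1 and Per3) beside 13% of all genes. Clock led with an adjusted p of 0.172 in the limma F-test. Clock had its lowest mean in HFD-LFD tumors, with values of 0.55, 0.83, 0.99, 1.29, 1.57, 1.88 and 2.14 in the 7 tumors. In LFD tumors it was 1.64, 1.96, 2.33, 2.44, 2.71, 2.80, 2.83 and 2.84. HFD tumors ran from 1.78 through a median of 2.34 to 3.72, and LFD-HFD tumors from 1.26 through 2.29 to 2.90. The 2 highest HFD-LFD tumors lay inside the LFD range and the other 5 below it.

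The pairwise contrast of HFD-LFD with LFD gave Clock a difference of -1.12 ± 0.29 (adjusted p = 0.0817 in the limma fit over all genes). In that contrast 1.25% of all genes passed 0.10. The epithelial HFD-LFD tumors lay on 2 slides and the epithelial LFD tumors on 2 others, so regimen and slide cannot be told apart there. With slide as a random block the adjusted p was 0.347 and the difference -1.11 ± 0.34. Against HFD tumors the difference was -1.09 ± 0.29 (adjusted p = 0.153, where 0.0287% of genes were called). The adjusted p of the contrast with LFD was 0.104 with median centring, 0.154 with 1 tumor per mouse number, 0.0283 without MSU_42L4B and MSU_60L, and between 0.0194 and 0.0921 under the other alternatives tried.

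Cry1 had its highest mean in LFD tumors. It was 0.17 ± 0.70 there, against -0.30 ± 0.56 with HFD, -0.69 ± 0.47 with HFD-LFD and -0.93 ± 0.76 with LFD-HFD. The contrast of LFD-HFD with LFD was -1.10 ± 0.33 (adjusted p = 0.469 in the limma fit). Per3 had its highest mean in HFD tumors, 1.58 ± 0.77 against 0.27 ± 0.84 in LFD-HFD tumors (difference -1.31 ± 0.44, adjusted p = 0.288 in the limma fit). On the 1 slide that held both, Per3 was 0.65 and 1.12 in the HFD tumors and 0.42 and -0.02 in the LFD-HFD tumors. The HFD tumors of that slide were late and its LFD-HFD tumors early, so regimen and onset cannot be told apart on it. Nr1d1 averaged -0.71 ± 0.63 in HFD and -1.48 ± 0.57 in LFD tumors (difference 0.77 ± 0.33, adjusted p = 0.469). The epithelial LFD tumors shared no slide with another regimen, so regimen and slide cannot be told apart in the Cry1 and Nr1d1 contrasts with LFD. In the 12 spindle cell tumors, with 3 a regimen, the F-test called no gene, clock genes included (0%), and 781 of 20902 genes (3.74%) but none of the 10 had an unadjusted p under 0.05.

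**Figure D3:**
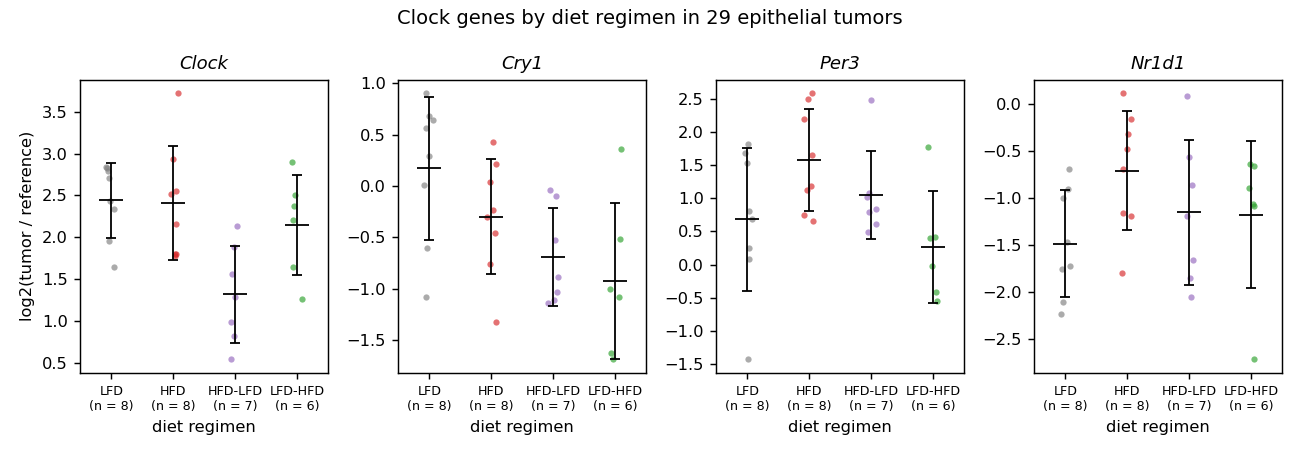
Log2 ratio of tumor over reference of Clock, Cry1, Per3 and Nr1d1 by diet regimen in 29 epithelial tumors; points are tumors, and bars give the mean and SD. Clock averages 1.32 in the 7 HFD-LFD tumors and 2.44 in the 8 LFD tumors, and the ranges of all regimens overlap.

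Correlation across tumors asked which clock genes rose and fell together. It was computed for all 45 pairs within each histology, since the histologies lay in separate scan sessions, with permutation p-values adjusted over the 45 pairs. In the 29 epithelial tumors 29 of 45 pairs had a positive r. One pair passed an adjusted p of 0.05, Per2 with Cry2. Both were low in MSU_71L (Per2 -1.10, Cry2 -2.39) and high in MSU_57R (1.22 and -0.75) and MSU_19R (1.43 and -0.22), while MSU_107R, the lowest for Per2 at -1.45, was at -1.71 for Cry2. Pearson r was 0.63 (permutation p = 0.00024, adjusted 0.0108, n = 28) and Spearman rho was 0.63 (permutation p adjusted 0.0184). Within slides r was 0.67 (permutation p adjusted 0.00878), within the larger scan session it was 0.64 (permutation p adjusted 0.0063, n = 27), and without the 2 tumors farthest from the median of Per2 it was 0.67. Of all genes tested, 99.8% had a lower r with Per2 than Cry2 had. Tumor MSU_60L was missing here because its Cry2 spot carried an outlier flag. With such spots kept r was 0.45 (permutation p adjusted 0.261), and with the mean of both Cry2 probes it was 0.53 (adjusted 0.133).

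Nr1d1 and Dbp, both driven by the Arntl and Clock pair, were the next closest in epithelial tumors. Their r was 0.46 (permutation p = 0.0107, adjusted 0.241, n = 29) and rho was 0.57 (permutation p adjusted 0.0376). Within slides r was 0.67 (permutation p adjusted 0.00878). It was also 0.67 within the larger scan session (permutation p adjusted 0.0063, n = 27). It was 0.44 without the 2 tumors farthest from the median of Nr1d1, and 0.06 with normexp and loess. The highest Dbp values, 2.01 in MSU_57R and 1.71 in MSU_108R, went with Nr1d1 at -0.32 and -1.19, and MSU_60L, the lowest for Dbp at -2.19, had Nr1d1 at -1.16. Per2 with Nr1d2 gave 0.38 (permutation p adjusted 0.346). Arntl gave 0.14 with Nr1d1, 0.08 with Nr1d2, 0.33 with Dbp and -0.34 with Per1, none of them past the threshold.

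In the 12 spindle cell tumors 4 genes were linked by high r: Nr1d1, Nr1d2, Per3 and Dbp. All 6 pairs among them had an r between 0.58 and 0.87. Of these 2 passed an adjusted p of 0.05, while none of the other 39 pairs did. The 4 genes were grouped by these same r values, so the grouping is a description and not a separate test. The r of Per3 with Dbp, 0.58, was 0.10 without the 2 tumors farthest from the median of Per3, and Per3 was above background in 6 of the 12 tumors. The link was closest between the REV-ERB genes. Nr1d1 was lowest in MSU_M32L, MSU_M76R and MSU_M56LA (-1.72, -1.13 and -1.07), where Nr1d2 was 0.21, 0.05 and 0.65. The first 2 of these tumors were also highest for the mean of the list of adipocyte markers, at 1.61 and 3.31. The other spindle cell tumors lay between -5.11 and -3.21 for that list. Nr1d1 was highest in MSU_M128L and MSU_M63L (0.48 and 0.93), where Nr1d2 was 1.60 and 1.42. Their r was 0.87 (permutation p = 0.00018, adjusted 0.0081, n = 12) and rho 0.88 (permutation p adjusted 0.0153). Within slides r was 0.88 (permutation p adjusted 0.0189), and without the 2 tumors farthest from the median of Nr1d1 it was 0.89.

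Per3 followed Nr1d1 nearly as closely. Per3 was 0.41, 0.48 and 0.07 in the 3 tumors lowest for Nr1d1 and 2.38 and 1.95 in the 2 highest. Their r was 0.81 (permutation p = 0.00155, adjusted 0.0349, n = 12), rho was 0.80 (permutation p adjusted 0.056), and r within slides was 0.80 (permutation p adjusted 0.15). Without the 2 tumors farthest from the median of Per3 it was 0.77. Dbp gave r = 0.72 with Nr1d2 (permutation p adjusted 0.0842) and 0.62 with Nr1d1 (permutation p adjusted 0.292). Dbp was highest in MSU_M128L at 2.12. MSU_M63L, at -0.07 for Dbp, was high in the other 3 genes. With normexp and loess, with the authors' matrix, or without MSU_M32L, MSU_M86R and MSU_M76R, no pair passed the threshold (smallest permutation p adjusted 0.34, 0.116 and 0.102).

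Arntl, the gene that the REV-ERB proteins repress, gave an r of -0.44 with Nr1d1, -0.50 with Nr1d2, -0.36 with Dbp and -0.03 with Per3 in spindle cell tumors. None of the 4 passed the threshold. MSU_M129L held the lowest Arntl value, -0.90, with Nr1d1 at -0.46. MSU_M32L and MSU_M76R, the 2 lowest for Nr1d1, both stood at 0.66 for Arntl, the top of its range. Per1 gave -0.56 with Per3 (permutation p adjusted 0.366). Whether r differed between histologies was not tested.

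**Figure D4:**
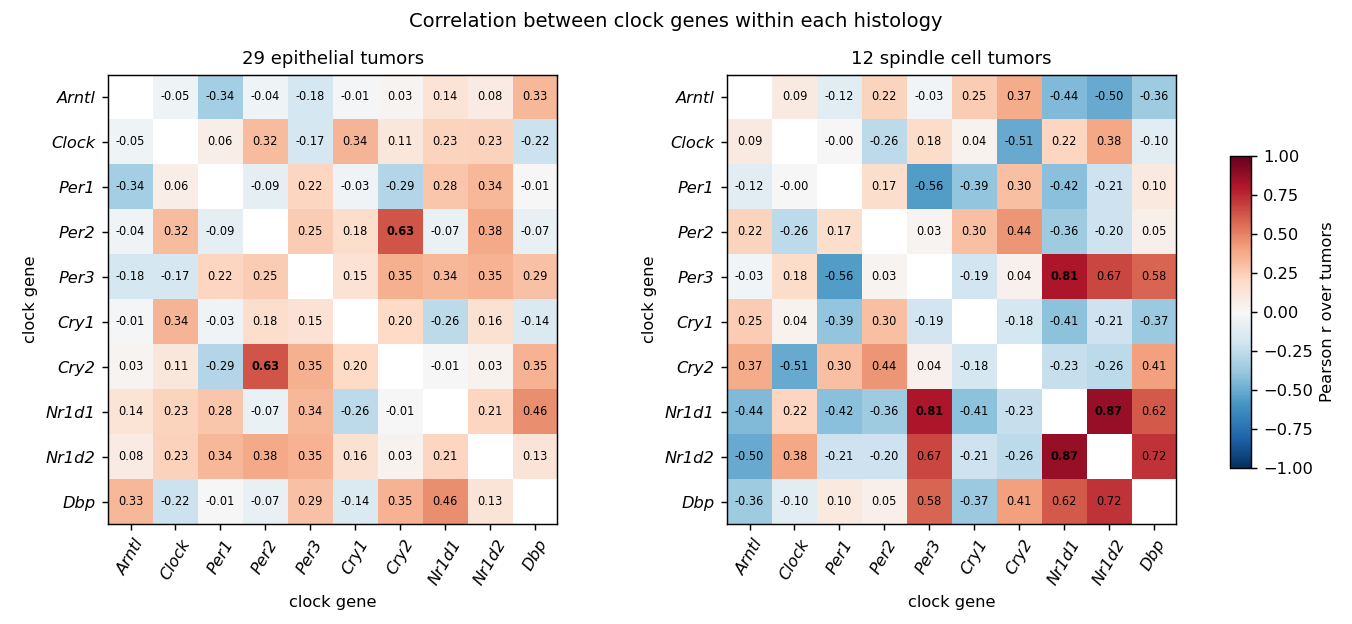
Pearson r over tumors for the 45 pairs of clock genes in 29 epithelial (left) and 12 spindle cell (right) tumors, on a colour scale from -1 to 1; bold marks pairs past an adjusted p of 0.05. Per2 with Cry2 (0.63) stands out on the left, and the block of Per3, Nr1d1, Nr1d2 and Dbp on the right.

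**Figure D5:**
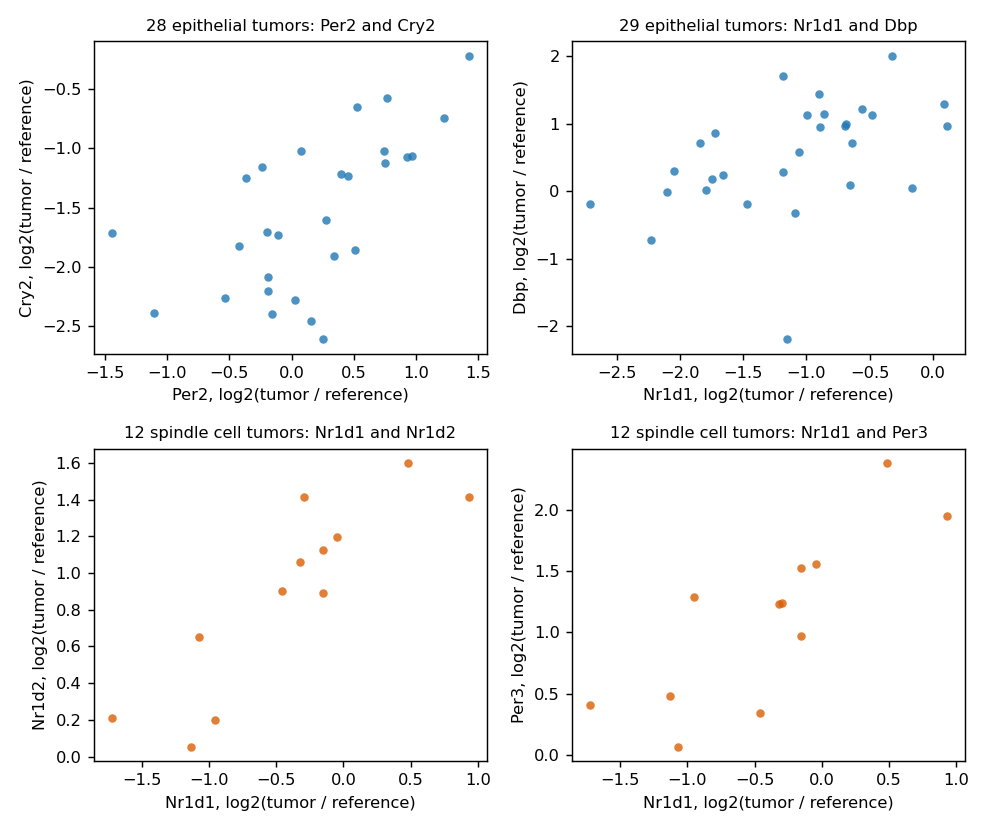
Log2 ratios of tumor over reference for 4 pairs of clock genes, 1 point a tumor: Per2 and Cry2 (28 epithelial tumors), Nr1d1 and Dbp (29 epithelial tumors), Nr1d1 and Nr1d2, and Nr1d1 and Per3 (12 spindle cell tumors each). Pearson r is 0.63, 0.46, 0.87 and 0.81 in that order.

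Genes outside the clock set were ranked by r with each clock gene over the epithelial tumors, as a description without a test; all r share the arrays and the reference. For Dbp the closest of 15353 genes with a bright probe was Tef (r = 0.74, n = 28), a leucine zipper factor of the same family that also binds D-boxes. Per1 was closest to 4930412O13Rik (0.75), Dll1, a Notch ligand (0.74), and Inhbb, an activin subunit (0.72), each over 27 tumors. Per2 was closest to Zfp318 (0.73), Ralgapa1 (0.71) and 1600023N17Rik (0.69). Cry2 was closest to Vipr1, the receptor of vasoactive intestinal peptide (0.77), Fbxo21 (0.75) and Vamp1 (0.73). Nr1d1 was closest to Clcf1, a cytokine of the interleukin-6 family (0.70), Pim3, a kinase (0.68), and Atp6v0d1 (0.65).

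The remaining clock genes had other nearest genes. Arntl was closest to Ppp6r2 (0.68), Guca1b (0.65) and Mtmr2 (0.65), and Ppp6r2 (0.69) was also among the nearest of Dbp, after Rnf216 (0.71). Clock was closest to Slc25a40 (0.82), 4921524J17Rik (0.80) and 1700020O03Rik (0.80). Per3 was closest to Prcc (0.81), 2610301G19Rik (0.81) and Snd1 (0.79), Cry1 to Ltbr (0.65), Alg2 (0.61) and Tbc1d24 (0.61), and Nr1d2 to Dr1 (0.82), Grsf1 (0.81) and Yod1 (0.81). No gene lay among the 50 nearest of 3 or more clock genes.

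Lists of other cell types were set beside the clock genes. Each list's mean and the share of probes above background gave 80 relations with the 10 genes in each histology. In epithelial tumors none passed an adjusted p of 0.05. Nr1d1 and Per1 had the highest r with the immediate early genes, such as Fos and Egr1, which respond within minutes to handling (0.52 each; permutation p adjusted 0.126). Their Spearman rank correlations were 0.48 and 0.42 (permutation p adjusted 0.37 and 0.672). Without the 2 farthest tumors r was 0.36 for Nr1d1 and 0.48 for Per1. Dbp gave -0.62 with the list of epithelial markers (permutation p adjusted 0.126), and -0.22 without the 2 farthest tumors. In spindle cell tumors 1 relation passed, Clock with the leukocyte list (r = -0.91, permutation p adjusted 0.0064, n = 12). Its rho was -0.84 (permutation p adjusted 0.0736) and r without the 2 farthest tumors was -0.85. Nr1d1 and Nr1d2 gave -0.59 and -0.70 with the endothelial list (permutation p adjusted 0.556 and 0.402), and -0.11 and -0.26 without the 2 farthest tumors. With the list of adipocyte markers they gave -0.57 and -0.66 (permutation p adjusted 0.556 and 0.402), and 0.23 and 0.10 without the 2 farthest tumors. Per3 and Dbp gave -0.37 and -0.20 with that list. Cry2 gave 0.73 with it (permutation p adjusted 0.402), and 0.05 without the 2 farthest tumors. The part of these cell types in the clock gene values was not tested.

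Other genes of the clock were counted from a list of 28, of which 27 were tested. In spindle cell against epithelial tumors 6 of the 27 were lower and none higher. Of all 20910 genes 2561 were called lower and 1657 higher, 20.2% in either direction. The median difference was -0.27 over the list, beside -0.07 over all genes. Of the 6 lower genes, 5 are described here. Tipin, which partners Timeless at replication forks, differed by -0.51 ± 0.13 (adjusted p = 0.00471 in the limma fit), and Usp2, a deubiquitinase whose transcript cycles in many tissues, by -0.54 ± 0.17 (adjusted p = 0.0232). Btrc, which marks PER proteins for breakdown (-0.53 ± 0.18), Wee1, a cell cycle kinase (-0.46 ± 0.16), and Csnk1d, a kinase of PER proteins (-0.29 ± 0.10), passed as well, at adjusted p values of 0.0326, 0.0425 and 0.0413. None of the 27 passed in the comparisons of onset, pubertal diet, adult diet or the 4 regimens in epithelial tumors.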

How the data were processed

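RNA of each tumor (Cy5) had been hybridised beside the reference RNA (Cy3) on one two-colour Agilent array. The deposited intensity columns are the processed red and green signals of the scanner software, Feature Extraction 8.5.1.1 per the labels and 10.5.1.1 or 11.0.1.1 per the file headers, already background-subtracted and dye-normalized by the authors' software. The authors' matrix holds log2 ratios of the same arrays after Lowess and nearest-neighbour imputation, and served as an alternative. Its columns of 3 tumors matched other tumors' files, so the scanner labels were kept and both readings tried.

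Spots flagged as outliers were left out, spots of a probe averaged, and the log2 ratio of both processed signals taken. Probes with both signals above 10 on at least 80% of arrays were kept (27304 probes), with 1 probe a gene, that of highest mean signal. Fits used limma 3.58.1 in R 4.3.3 with Benjamini-Hochberg adjustment over 20910 genes, at 0.05 for histology and 0.10 otherwise. Correlations used 100000 resamples in scipy, two-sided. Alternatives were normexp (offset 50) with loess, median centring, the matrix, other filters and probe rules, slide as a block, covariates, a SAM statistic (100 permutations) and tumors left out. The clock genes and lists were chosen with earlier results of these data known. The genes named are the 10, the other clock genes called (1 of which is not reported here), and the 3 nearest by r to each. Nothing says that tumors of a group are independent beyond their mouse numbers, 3 of which gave 2 tumors each. The number of arrays limits the precision. Scripts were tested on simulated data.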

Additional observations from a re-analysis of the deposited data

Results flagged for a closer look

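Single tumors stood apart from the rest of their group in 10 of 98 group-by-gene tests (10.2%). Chance flags about 1 in 20 of independent tests on normal values. These groups were nested, so the tests overlapped, and the share cannot be compared with that rate. In epithelial tumors Per3 was 2.49 in MSU_108R, the highest of 7 HFD-LFD tumors. Arntl was -0.93 in MSU_31R, the lowest of 8 LFD tumors and also of the 4 early LFD tumors among them. Arntl was 1.20 in MSU_101L4A, the highest of 6 LFD-HFD tumors. Per2 was -1.10 in MSU_71L and Nr1d1 -2.71 in MSU_90R, each the lowest of the same 6 tumors. Per2 was 1.65 in MSU_60L, the highest of 4 early HFD tumors, and 1.22 in MSU_57R, the highest of 4 late HFD tumors. Cry2 was -2.26 in MSU_122Rb, the lowest of 4 late HFD-LFD tumors. Clock was 1.64 in MSU_11L, the lowest of 4 late LFD tumors. Of these arrays MSU_60L and MSU_122Rb had the most probes flagged as outliers (21.2% and 8.11%), and MSU_57R is one of the tumors whose matrix column matched another scanner file.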

How the results depend on the processing

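No clock gene difference or pair that passed its test changed sign. Of the 40 differences of the 10 genes in histology, onset and both diets, 16 changed sign under at least 1 alternative (4 of 10 in histology and 6 in onset), none of them past the threshold. In spindle cell against epithelial tumors the count of clock genes called, 1, became 0 with normexp and loess, the authors' matrix, slide as a random block or late tumors only, and 2 (Cry1 and Nr1d1) with no filter, a threshold of 0.10, regimen and onset as covariates or the SAM statistic; the cause was not tested. Over its 15 alternatives the Nr1d1 difference ran from 0.46 to 0.92. The 4 regimens in epithelial tumors called 1 clock gene (Clock) with the authors' matrix and 0 otherwise. Correlated pairs in epithelial tumors, 1, became 0 with outlier spots kept or the mean over a gene's probes and 2 with Spearman rho, slide means removed or without MSU_42L4B and MSU_60L, the added pair being Nr1d1 with Dbp. In spindle cell tumors the count, 2, became 0 with normexp and loess, the authors' matrix or without MSU_M32L, MSU_M86R and MSU_M76R, and 1 (Nr1d1 with Nr1d2) with median centring, Spearman rho or slide means removed, and 3 with the mean over a gene's probes. The alternatives for Clock between HFD-LFD and LFD were chosen after seeing the data, and there the count of all genes, 262, ran from 6 (slide as a random block) to 794 (without MSU_42L4B and MSU_60L).

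Counts over all genes moved more. Histology called 4218 genes, 7892 with no filter, 2550 with slide as a random block and 2348 in late tumors. Onset called 30 genes, from 0 with slide as a random block to 524 with SAM. Pubertal diet called 2, from 0 to 24, and the regimens in epithelial tumors 99, from 0 with slide as a random block to 229 with the matrix. The interaction of pubertal diet with histology called 93, from 16 without MSU_M32L, MSU_M86R and MSU_M76R to 2364 with normexp and loess, and that of onset 1, from 0 to 5. The regimens in spindle cell tumors called 0, and 12 without LFD-HFD early spindle replicate 1. No clock gene was among the calls of onset, either diet or the interactions under any alternative tried. No paired analysis was possible because no comparison had more than 1 mouse with a tumor in both groups (1 in histology, 1 in onset, 0 in the diets), and other replicate numbers follow accession order. Per3 and Cry1, the 2 dim probes, are the values that signal limits most.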
